A study of Homo sapiens with 2 samples.

Results

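Strong distal to distal loops over 20 kb are pairs of chromatin fragments that were joined in H3K27ac HiChIP. Neither fragment overlapped the canonical promoter of a protein-coding gene, while other start sites were allowed. Here 3718 such loops were chosen by their own counts. The counts of paired-end tags of each pair of anchors were summed over both replicates, the midpoints of the anchors had to lie 20 kb to 2 Mb apart, the summed count had to be 5 or more, and no anchor could overlap the region of 2.5 kb on either side of the transcription start site of a protein-coding gene (canonical transcript, GENCODE on hg19). They made up 64.4% of the 5774 strong loops of this length, the others being 1595 promoter to distal and 461 promoter to promoter loops. They were 0.269% of the 1382694 distal pairs of this length with any count, and the whole series held 1973470 pairs of different anchors up to 2 Mb apart.

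The study had 1 condition, HCT116 cells with no treatment named, in 2 replicates, so no condition could be compared with another. HCT116 is an established line of human colorectal carcinoma cells, grown in DMEM with fetal bovine serum. HiChIP cuts crosslinked chromatin with a restriction enzyme, here MboI, ligates ends that lie close in space and enriches the ligated fragments with an antibody against H3K27ac. The labels number the replicates without saying whether they were separate cultures, so the spread between them may be technical.

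H3K27ac, acetylation of lysine 27 of histone H3, marks active enhancers and active promoters. Enhancers are bound by transcription factors and can act on a promoter over long distances, and groups of enhancers close to each other, often called super enhancers when they are large, can be in contact with each other as well as with promoters. Loops held by cohesin often end at CTCF sites that point towards each other, whereas contacts between enhancers need not have CTCF at either end. AP-1, the dimer of FOS and JUN family proteins that acts downstream of RAS and ERK, binds the sequence TGANTCA and occupies many enhancers of epithelial cells.

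Sequences of hg19 from the anchors on which the results turn are shown first. Each line gives, on the plus strand, 100 bases of the anchor around the place with the most matches to TGANTCA, which stand in capitals. The first pair belongs to the loop with the highest summed count, both anchors of which lie in VMP1, and the others to the anchor with the most loops in 7 of the large clusters described below.
VMP1 left anchor, chr17:57859974-57860073: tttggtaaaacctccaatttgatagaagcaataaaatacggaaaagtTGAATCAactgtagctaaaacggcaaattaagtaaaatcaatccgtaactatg
VMP1 right anchor, chr17:57906627-57906726: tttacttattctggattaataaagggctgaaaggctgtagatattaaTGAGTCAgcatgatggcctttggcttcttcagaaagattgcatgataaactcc
PCDH7 hub, chr4:30936260-30936359: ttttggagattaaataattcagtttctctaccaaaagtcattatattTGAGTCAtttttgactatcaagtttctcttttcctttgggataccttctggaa
ACSL5 hub, chr10:114139896-114139995: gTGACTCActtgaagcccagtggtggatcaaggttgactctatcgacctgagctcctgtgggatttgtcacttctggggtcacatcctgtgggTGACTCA
HMGA2 hub, chr12:66042992-66043091: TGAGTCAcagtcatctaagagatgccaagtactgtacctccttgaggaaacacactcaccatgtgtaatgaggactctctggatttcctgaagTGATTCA
IRS1 hub, chr2:227620932-227621031: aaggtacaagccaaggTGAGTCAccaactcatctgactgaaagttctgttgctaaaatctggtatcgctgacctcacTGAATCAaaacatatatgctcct
RAD51B hub, chr14:68717060-68717159: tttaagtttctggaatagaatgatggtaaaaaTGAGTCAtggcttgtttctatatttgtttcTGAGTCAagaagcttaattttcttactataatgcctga
IFNE to MTAP hub, chr9:21688816-21688915: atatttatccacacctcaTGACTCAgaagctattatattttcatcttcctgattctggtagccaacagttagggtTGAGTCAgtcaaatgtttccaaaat
AREG to BTC hub, chr4:75544099-75544198: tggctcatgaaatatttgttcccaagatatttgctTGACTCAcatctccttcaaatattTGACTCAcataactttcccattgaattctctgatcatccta

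In these 9 windows the capitals mark 1 or 2 matches each. Windows picked in the same way from the busiest anchors of the clusters at PHLDA1, SYTL3 and SLC39A11 held 1 match each and are not printed. No window was taken from chromosome 8. Over all distal anchors, 3.30% of windows of this length held a match and 0.0734% held 2 or more. In the 218 anchors that took part in 5 or more of the loops, the shares were 4.38% and 0.189%. Since each printed window was picked for its matches, it only shows what such a place looks like.

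The totals of the deposited tables were 1885481 counts in replicate 1 and 2131466 in replicate 2, of which 302149 and 302293 joined an anchor with itself. The distal loops took 12153 counts in replicate 1 and 14885 in replicate 2, 0.768% and 0.814% of the counts between different anchors. A single loop had 0 to 46 counts in replicate 1 and 0 to 51 in replicate 2, with a median of 3 in each. Of the 3718 loops, 3561 (95.8%) had a count in both replicates, 111 had none in replicate 1 and 46 had none in replicate 2. The choice by the sum leaves few loops at 0 in a replicate, so this share is no measure of reproducibility. Only 311 loops had 5 or more counts in each replicate, and 619 and 955 reached 5 in replicates 1 and 2 alone. A count of 0 allows up to 3 counts, and the tables hold no molecular identifiers, so all intervals given here cover counting error only.

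**Figure D1:**
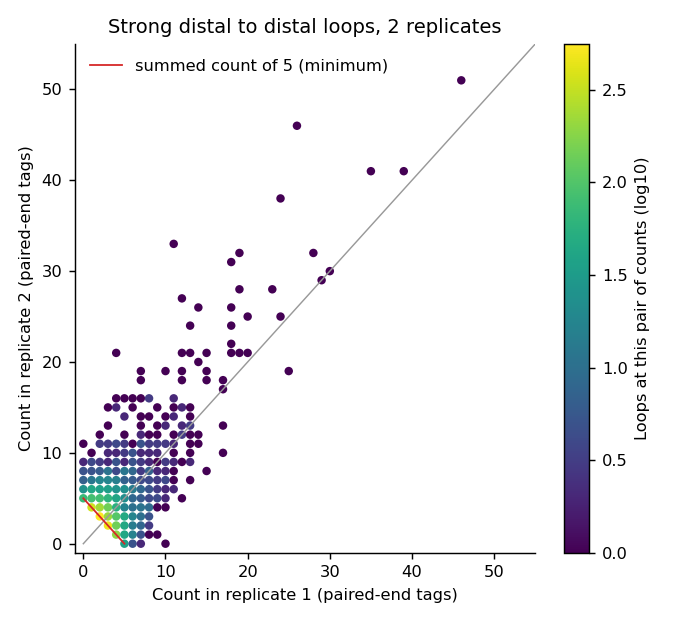
Counts of paired-end tags of each strong distal to distal loop in replicate 1 (x axis) and replicate 2 (y axis), with the colour giving the number of loops at the same pair of counts on a log10 scale, the red line the minimum summed count of 5 and the grey line equal counts. Most of the 3718 loops sit just above the minimum, and the highest point is the VMP1 loop with 46 and 51 counts.

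The summed counts chose the loops and are described without a test. The median summed count was 6 and the highest 97. The loops just inside the minimum, with a summed count of 5, numbered 1679 (45.2%), and 4772 distal pairs lay just outside it with a summed count of 4. A summed count of 10 or more was reached by 480 loops (12.9%) and one of 20 or more by 98. At the other limit, 883 loops were 20 to 25 kb long and 1694 distal pairs with 5 or more counts lay just outside at 15 to 20 kb.

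The median length was 36.6 kb, with quartiles of 25.4 and 76.0 kb. The class of 20 to 50 kb held 2338 loops (62.9%), that of 50 to 100 kb 703 (18.9%), that of 100 to 200 kb 413 (11.1%), that of 200 to 500 kb 216 (5.81%) and that of 500 kb or more 48 (1.29%). The median was 38.8 kb in promoter to distal and 36.8 kb in promoter to promoter loops, and these differences were not tested. The distal pairs with summed counts of 1 to 4 had a median length of 245 kb.

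The loops rested on 4603 anchors, 1.97% of the 233633 distal anchors of the autosomes and X. Most of them, 3566, took part in 1 loop, whereas 59 took part in 10 or more and the busiest in 31. The loops therefore share anchors and are not independent of each other. The anchors were wide, with a median of 5524 bp against 2497 bp for all distal anchors. Widths of 10 kb or more were found in 18.3% of them against 1.62% of all distal anchors, and 1524 loops (41.0%) had such an anchor. The counts between different anchors were 13.7 per kb of these anchors and 8.21 per kb of all distal anchors. A wide or deep anchor collects more counts with every partner, and the part of width and depth in the choice of the loops is taken up with the counts of the other replicate below.

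The loop with the highest summed count joined chr17:57859951-57865626 with chr17:57905284-57909255, 44.5 kb apart and both inside VMP1, a gene for a membrane protein needed for autophagy. It had 46 counts in replicate 1 and 51 in replicate 2. VMP1 held both anchors of 10 loops, with 111 and 134 counts in all. The other 9 of the 10 strongest loops lay in 4 regions, and each was found in both replicates.

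Of these, 3 joined anchors of a region of chromosome 12 without protein-coding genes, between KRR1, a factor of ribosome assembly, and PHLDA1, a pleckstrin homology-like protein. The loop between chr12:76045043-76063691 and chr12:76092435-76110408 had 39 and 41 counts in replicates 1 and 2. The loop from chr12:76027130-76036481 to the first of these anchors had 35 and 41 counts, and that to the second had 19 and 32. All of these anchors overlapped the lncRNA gene ENSG00000258077.

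On chromosome 9, 3 of the 10 loops shared the anchor chr9:21664318-21691157, which lies in no protein-coding gene between IFNE, an epithelial interferon, and MTAP, an enzyme of methionine salvage. Its loop to chr9:21575182-21583855, 98.2 kb away, had 26 and 46 counts, that to chr9:21589312-21598686 had 24 and 38, and that to chr9:21610570-21618162 had 30 and 30. The first was lower in replicate 1 than in replicate 2, and the third was equal in both.

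On chromosome 4, the anchor chr4:75542195-75568786 between AREG and BTC, both genes of ligands of the EGF receptor, had 28 and 32 counts with chr4:75577864-75581188 and 29 and 29 with chr4:75583410-75588292. These loops were 24.0 and 30.4 kb long. The remaining loop of the 10, 106 kb long, joined chr4:30752021-30761068 and chr4:30854822-30870746 inside PCDH7, a protocadherin of the cell surface, and had 23 counts in replicate 1 and 28 in replicate 2.

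A high count did not always stand far above what distance and anchor depth gave. As a description, since the same counts chose the loops, the VMP1 loop had 6.68 times its expected count of 14.5. The chromosome 12 loop with 35 and 41 counts had 1.04 times its expected 73.4, and the other 8 lay between 1.44 and 3.68 times. Over all loops the median was 2.47, and 212 loops (5.70%) were at or below expectation.

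The 5 longest loops had few counts. The longest, 1965 kb, joined 2 anchors of chromosome 9 outside protein-coding genes, from chr9:66455926-66462067 to chr9:68420094-68427542 near the centromere, with 2 and 4 counts. The next, 1082 kb, ended in MVB12B with 1 and 4 counts. The other 3 joined RAD51B, a gene of DNA repair, with the neighbourhood of ZFP36L1, an RNA-binding protein that speeds the decay of messenger RNAs. Their lengths were 874, 841 and 841 kb, and their counts were 2 and 4, 2 and 3, and 5 and 5 in replicates 1 and 2. The loop with 5 in each joined chr14:68405675-68413321 with chr14:69245261-69254974.

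Both anchors lay in the body of the same protein-coding gene in 1513 loops (40.7%, exact binomial interval 39.1 to 42.3%), and in different genes in 185 (4.98%). In 610 loops (16.4%) only 1 anchor lay in a gene, and in 1410 (37.9%, 36.4 to 39.5%) neither did. Weighted by counts, the share inside 1 gene was 42.4% ± 0.152 (SD, n = 2) and the share with neither anchor in a gene was 37.9% ± 0.0687 (SD, n = 2). Both replicates were read over the same loops, chosen by the sum of these counts, so these SDs are no measure of reproducibility. Loops inside 1 gene had a median length of 31.1 kb, those between different genes 80.3 kb and those outside genes 35.4 kb. Single anchors fell in protein-coding genes in 54.4% of cases, against 51.1% of all distal anchors. Shares inside and outside genes, here and below, refer to protein-coding genes only. Bodies of lncRNA genes were overlapped by 26.5% of the loop anchors and 20.7% of all distal anchors. Only 26.4% of the loop anchors lay in no gene body of either kind, against 33.2% of all distal anchors.

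The place of the loops was read against their length, since a long pair leaves a gene more easily. At 20 to 50 kb, 47.8% of the strong loops lay inside 1 gene, against 39.6% of the distal pairs with summed counts of 1 to 4. At 50 to 100 kb the shares were 32.1% and 28.3%. From 100 kb on they were 25.1% (170 of 677 loops, 21.9 to 28.6%) and 6.94%, but there the strong loops were shorter, with a median of 169 kb against 407 kb, and many lay in PCDH7. Without the loops inside PCDH7 the share from 100 kb on was 15.4%. In narrower classes without PCDH7, it was 23.2% (18.2 to 28.9%) against 19.5% at 100 to 150 kb, 11.8% (14 of 119 loops) against 14.3% at 150 to 200 kb and 13.9% (7.79 to 22.2%) against 9.92% at 200 to 300 kb. At each of these lengths the share of the other pairs lay within the exact binomial interval of the loops. At 50 to 100 kb without PCDH7 it was 27.1% against 28.3%, whereas at 20 to 25 kb it was 50.2% (46.8 to 53.5%) against 43.4%. The share with neither anchor in a gene was 39.2% and 39.9%, 38.5% and 35.4%, and 32.8% and 29.2% in the same 3 classes. Loops that share anchors are not replicates, so these differences were not tested.

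**Figure D2:**
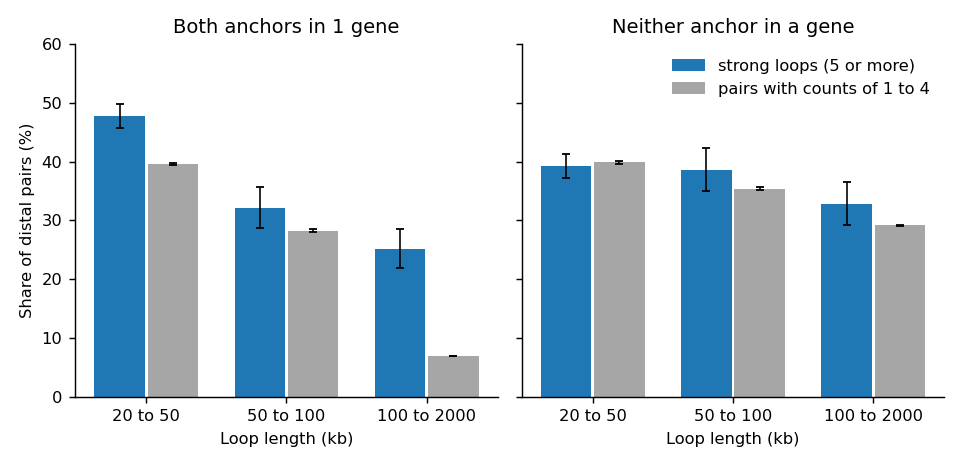
Share (%) of distal pairs with both anchors in 1 protein-coding gene (left) and with neither anchor in a protein-coding gene (right), by loop length in kb. Blue bars are the strong loops and grey bars the pairs with summed counts of 1 to 4. The exact 95% binomial intervals cover counting error only. Inside genes at 100 to 2000 kb the bars stand at 25.1% and 6.94%, for pairs with median lengths of 169 and 407 kb, and the first is 15.4% without PCDH7.

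The share inside genes depended on PCDH7 and on which start sites were counted as promoters. Without the 175 loops inside PCDH7, 37.8% of the loops lay inside 1 gene and 39.8% outside genes. Start sites of other transcripts of protein-coding genes lay at 16.5% of the loop anchors and at 10.7% of all distal anchors. When these too were counted as promoters, 2816 of the 3718 loops stayed distal, 33.0% of them lay inside 1 gene and 49.9% outside genes, so the order of these shares turned, as it did without PCDH7. All of the 10 strongest loops stayed distal. Start sites of lncRNA genes lay at 10.7% of the loop anchors, against 4.67% of all distal anchors.

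Loops inside genes were found in 690 protein-coding genes, of which 488 held 1 loop and 19 held 10 or more. The genes were long, with a median of 182 kb against 27.2 kb for all 20163 protein-coding genes. The 10 genes with the most loops held 413 of them (11.1%).

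PCDH7 held 175 loops between 35 anchors, with 947 counts in replicate 1 and 1189 in replicate 2. NSMCE2, a SUMO ligase of the SMC5/6 complex, held 61 loops with 244 and 293 counts. RAD51B held 36 with 90 and 147 counts, PHLDB2, a protein of the cell cortex, 27 with 125 and 165, and VTI1A, a SNARE protein of vesicle fusion, 25 with 116 and 161. The number of loops in PCDH7 was thus several times that in any other gene.

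The remaining 5 of these genes were PDE4B, a cyclic AMP phosphodiesterase, with 23 loops, PPP3CA, the catalytic subunit of calcineurin, with 22, ZBTB20, a zinc finger repressor, with 17, PALLD, an actin-binding protein, with 15, and SYTL3, an effector of RAB27 in exocytosis, with 12. SMAD3, a mediator of TGF-beta signals, and CAV2, a caveolin, followed with 12 loops each. With the start sites of all coding transcripts counted as promoters, PCDH7 kept 148 loops, NSMCE2 50, RAD51B 25, VTI1A 25 and SYTL3 12, whereas PHLDB2 kept 8, PDE4B 7, PPP3CA 13, ZBTB20 9 and PALLD 8.

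Loops were then joined into clusters where their spans overlapped. The 3718 loops formed 1484 clusters, of which 1074 held a single loop (28.9% of the loops). Clusters of 10 or more numbered 55 and held 1524 loops (41.0%) in 20.2 Mb of sequence, with a median span of 306 kb, and 16 of them had no start site of a protein-coding gene in their span. The 10 largest clusters held 730 loops (19.6%). When loops had to share an anchor, there were 1575 clusters.

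The largest cluster, at chr4:30727910-31240587, held 177 loops, 175 of them inside PCDH7. Its loops had 950 counts in replicate 1 and 1202 in replicate 2, with medians of 4 and 5 and highest values of 25 and 28, and 173 of the 177 were found in both. They were 12.7% of the 1392 pairs that its 55 distal anchors could form at this length. The busiest anchor, chr4:30933667-30966093, took part in 31 loops with 209 and 268 counts, and chr4:30854822-30870746 in 24 with 218 and 279. From these anchors, 5 strong loops with 17 and 19 counts in all led to the promoter of PCDH7, which lies just left of the cluster. The distal loops of the cluster had more counts than those with the promoter in both replicates. Clusters were ranked by their number of distal loops, so this follows in part from the choice. All counts of its distal anchors came to 36.7 per kb, against 8.21 over all distal anchors, and the part of this depth in the number of loops was not tested.

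The second cluster, chr8:126121208-126714930, held 123 loops with 425 and 547 counts, in NSMCE2 and on both sides of TRIB1, a pseudokinase that guides the degradation of C/EBP factors. Of its loops, 61 lay inside NSMCE2, 26 had 1 anchor in a gene and 36 had none. The strong promoter loops of its anchors, 18 with 58 and 76 counts, all led to the promoter of TRIB1. The third cluster, chr12:75939753-76856182, held 77 loops with 320 and 422 counts, of which 76 lay outside protein-coding genes. Its anchors had 4 strong loops to the promoter of PHLDA1, with 13 and 13 counts, and 3 to that of BBS10, a chaperonin-like protein of cilia, with 12 and 11.

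The cluster at chr10:114079436-114701995 held 56 loops with 228 and 289 counts, 29 of them inside 1 gene, around ACSL5, an acyl-CoA synthetase, and VTI1A. Its anchors formed 9 strong loops, with 40 and 47 counts, with the promoter of TCF7L2, the transcription factor that carries WNT signals with beta-catenin, while the other 13 led to the promoter shared by VTI1A and ZDHHC6 (5 loops), to 2 promoter anchors of ACSL5 (5 and 2 loops) and to GPAM (1 loop). The cluster at chr12:65699967-66431553 held 53 loops with 225 and 269 counts around MSRB3 and HMGA2, an architectural chromatin protein. All of its 12 strong promoter loops, with 62 and 66 counts, led to HMGA2.

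The cluster at chr2:226894172-227863021 held 53 loops with 201 and 228 counts beside IRS1, the insulin receptor substrate, whose promoter took all 4 of its strong promoter loops. The cluster at chr14:68400045-69328388 held 52 loops with 126 and 216 counts, 36 of them inside a gene, and its 6 strong promoter loops led to ZFP36L1. The cluster at chr6:159106627-159381836 held 50 loops with 225 and 278 counts in and around SYTL3 and EZR, which encodes ezrin, a linker of actin and membrane. Its 15 strong promoter loops reached 3 promoter anchors, those of EZR, RSPH3 and DYNLT1, with 5 each.

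The cluster at chr8:94776926-95374799 held 45 loops with 184 and 243 counts, and 13 of its 15 strong promoter loops, with 93 and 101 counts, led to PDP1, a phosphatase that activates pyruvate dehydrogenase. The cluster at chr17:70549100-70715007 held 44 loops with 177 and 209 counts. They were 28.6% of the 154 possible pairs, the highest share of the 10 clusters. Its span of 166 kb was the shortest of the 10, and its distal anchors had 38.8 counts per kb. The part of span and depth in this share was not tested. This cluster lies over the 3′ end of SLC39A11, a zinc transporter, and the 5′ end of the lncRNA gene LINC00511. Its 2 strong promoter loops, with 7 and 4 counts, led to the promoter anchor shared by C17orf80 and FAM104A. In 9 of the 10 largest clusters, the loops had over 2-fold the counts of the strong promoter loops of the same anchors in both replicates, the exception being the PDP1 cluster in replicate 1, with a ratio of 1.86. The clusters were ranked by their number of distal loops, and both kinds of loop were chosen by summed counts. An excess of distal counts in both replicates thus follows in part from the choice. A cluster also has many distal and few promoter anchors, and the difference was not tested.

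The next clusters hold 5 of the 10 strongest loops. The cluster at chr9:21284121-22215910 held 42 loops with 292 and 422 counts, all outside protein-coding genes, and its anchors had 4 strong loops with the promoter of MTAP. The cluster at chr4:75184632-75613043 around EREG and AREG also held 42 loops, with 247 and 283 counts and a median length of 182 kb. From its anchors, 3 strong loops with 15 and 8 counts led to the promoter of EREG, 2 with 12 and 3 to that of EPGN and 1 with 2 and 3 to that of BTC, which also encode ligands of the EGF receptor. These promoter loops were lower in replicate 2 for EREG and EPGN, whereas the distal loops of the cluster were not.

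**Figure D3:**
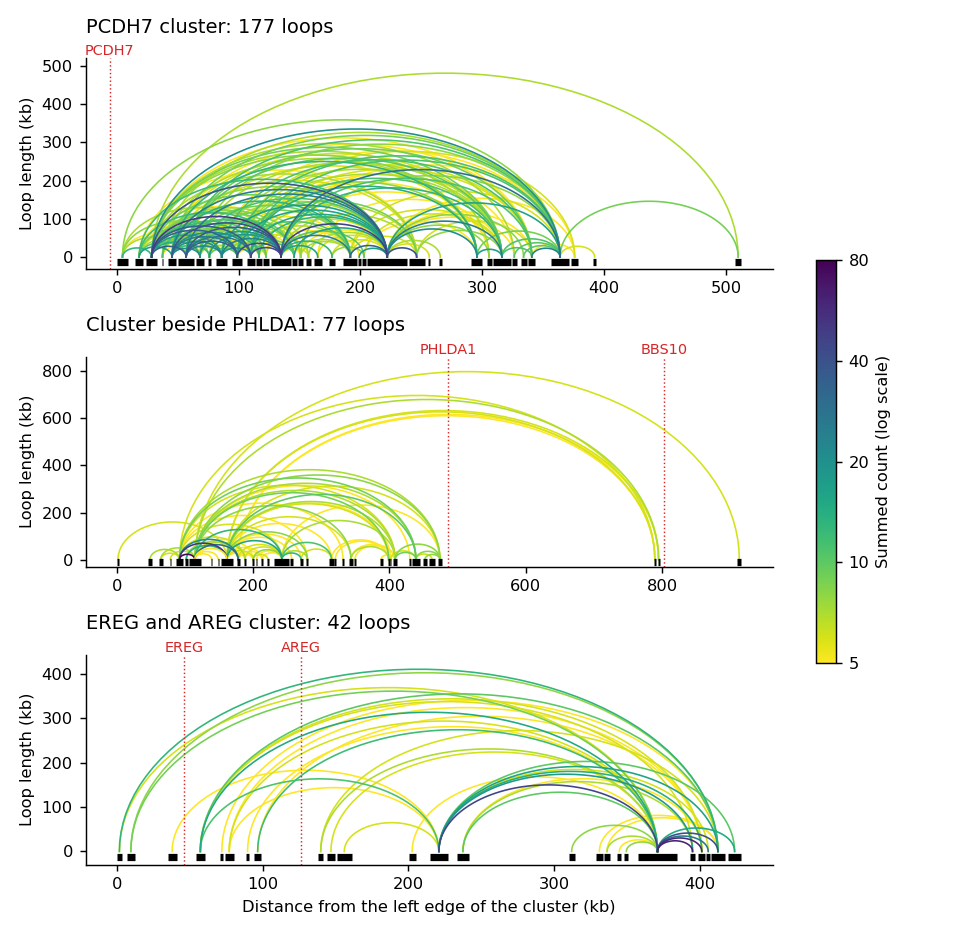
Loops of 3 clusters as arcs between anchor midpoints, with distance from the left edge of the cluster in kb (x axis) and loop length in kb as the height of the arc (y axis). Colour gives the summed count on a log scale, black bars are the anchors and red dotted lines are start sites of genes. The PCDH7 cluster (177 loops) lies to the right of its start site, the cluster beside PHLDA1 (77 loops) mostly to the left of that gene, and the EREG and AREG cluster (42 loops) converges on the anchor with 20 loops.

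The loops were unevenly spread over the chromosomes. Per 100 distal anchors, chromosome 17 had 4.01 loops, chromosome 8 had 3.01, chromosome 10 had 2.52, chromosome 12 had 2.42 and chromosome 4 had 2.28, whereas chromosome 5 had 0.625 and chromosome X 0.0777 (2 loops among 2575 distal anchors). Outside the clusters of 10 or more loops, chromosome 17 still had 2.75, chromosome 10 had 1.85, chromosome 22 had 1.54 and chromosome 8 had 1.49, but chromosome 12 had 0.961 and chromosome 4 had 0.598. The counts per kb of distal anchor were also highest on chromosomes 17, 8 and 10, at 11.3, 10.4 and 9.47, and lowest on X, at 2.69, whereas chromosome 22 had 7.75, below the 8.21 of all distal anchors. The loops were chosen on raw counts with no correction for DNA copy number. The part of the counts per kb in the number of loops was not tested.

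**Figure D4:**
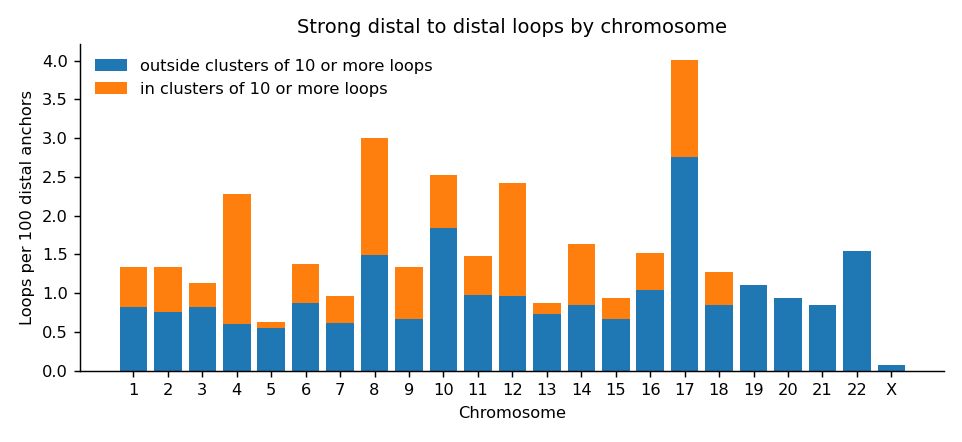
Strong distal to distal loops per 100 distal anchors on each chromosome (bars from 0), split into loops in clusters of 10 or more (orange) and outside them (blue). Outside large clusters chromosome 17 stands highest, followed by chromosomes 10, 22 and 8, whereas most loops of chromosome 4 lie in large clusters.

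The nearest gene of an anchor was the protein-coding gene with the closest canonical start site. The loops had 1871 nearest genes, and in 2591 loops (69.7%) both anchors had the same one. Of the 19812 symbols of protein-coding genes on the autosomes and X, 9.44% were the nearest gene of a loop anchor, which is the background for the lists that follow. All lists, that of lncRNAs included, were chosen with earlier results of these data known. A share above the background is therefore a description and no independent support for a list. PCDH7 was nearest to anchors of 178 loops, TRIB1 of 96, NSMCE2 of 73, KRR1 of 59, IRS1 of 52 and PHLDA1 of 47. The nearest gene need not be the gene contacted, and an anchor within a long gene may lie nearer to another start site.

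Of the 24 AP-1 and RAS-ERK feedback genes, 10 (41.7%) were nearest to a loop. PHLDA1 had 47 loops with 146 counts in replicate 1 and 184 in replicate 2, AREG 21 with 99 and 113, and EREG, another ligand of the EGF receptor, 10 with 34 and 40. DUSP4, DUSP5 and DUSP6, phosphatases of MAP kinases, had 7, 5 and 3, EPHA2, an ephrin receptor, 7, SPRY4, an inhibitor of receptor tyrosine kinase signals, 6, ATF3 5 and FOS 1. The genes of the AP-1 subunits FOSL1, FOSL2, JUN, JUNB and JUND had none.

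Of the 20 WNT targets and effectors, 7 (35.0%) were nearest to a loop. SOX9, a transcription factor of the crypt base, had 35 loops with 125 and 149 counts, and TCF7L2 14 with 33 and 51. BMP4 had 4, CD44 2, and ASCL2, AXIN2 and LEF1 1 each. These are nearest genes only, and the LINC00511 cluster described above had no strong promoter loop to SOX9. MYC, LGR5 and RNF43 were among the 13 with none. MYC was not the nearest gene to the loops over the lncRNA gene CASC19, which had 13 loops with 52 and 45 counts.

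Of the 28 epithelial adhesion genes, 13 (46.4%) were nearest to a loop, mostly to few. ACTN4, a crosslinker of actin, had 7 with 24 and 28 counts, KRT8 and KRT18, neighbouring genes of simple epithelial keratins, 5 each, PLEC, a linker of hemidesmosomes, 4, and ITGB1 3. CDH1, the gene of E-cadherin, had none. Of the 25 intestinal transcription factors, 7 (28.0%) were nearest to a loop, with 5 each for EHF and ELF3, 4 for HNF4G and 3 for GRHL2, while CDX2, HNF4A and GATA6 had none.

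Of the 18 lncRNAs of the list that were annotated, 7 (38.9%) overlapped a loop anchor, against 4.69% of all lncRNA genes. Besides CASC19, these were MALAT1 and NEAT1 with 7 loops each, CASC8 and MIR31HG with 6, HULC with 2 and SNHG15 with 1. MIR31HG, the host gene of miR-31, had 34 and 62 counts. SNHG15 had 0 and 6, so its only loop was seen in 1 replicate.

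Among all lncRNA genes, ENSG00000258077 overlapped anchors of 76 loops with 319 and 415 counts, LINC00511 of 44 with 163 and 194, MSRB3-AS1 of 43 with 184 and 225 and LINC02964 of 41 with 113 and 179.

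The relation of the loops to promoters was read from the strong promoter loops of the same anchors, of any length up to 2 Mb. In 2087 loops (56.1%, 54.5 to 57.7%) neither anchor had a strong loop with a promoter anchor. In 1110 (29.9%) 1 anchor had one, and in 442 (11.9%) both anchors had one with the same promoter anchor. Each distal anchor of these loops was thus joined with the other and with the promoter anchor. Such counts of pairs do not show that all were in contact at the same time. In 79 (2.12%) both had one, but with different promoter anchors, which can belong to the same gene. Loops without a promoter partner had a median length of 30.8 kb and those with a shared promoter 51.4 kb.

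Most loops did not pass over a promoter anchor. Start sites without an anchor in these data were not counted. In 3103 (83.5%) no promoter anchor lay between the anchors. By length, this share was 92.6% of the strong loops and 87.1% of the distal pairs with summed counts of 1 to 4 at 20 to 50 kb, 76.7% and 71.4% at 50 to 100 kb, and 58.8% and 29.9% from 100 kb on. As the pairs of the longest class differed in length, it was divided further. The shares were 61.4% (55.5 to 67.2%) and 57.2% at 100 to 150 kb, 61.7% (52.8 to 69.9%) and 47.9% at 150 to 200 kb and 71.4% (63.0 to 78.9%) and 38.7% at 200 to 300 kb. Without PCDH7 the loops of these classes had 57.5%, 57.1% and 62.4%. The differences were not tested.

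Sequence features of the anchors took no part in the choice of the loops. CTCF sites were searched as its core motif on both strands, and the matches below, in capitals with 10 bases on either side, show both ends of 3 of the loops with a match at each end. Each is written 5′ to 3′ on its own strand. Among the oriented loops whose sequence was read, they are the one with the most counts (8 and 8, 726 kb long), the convergent one with the most counts (4 and 5, 41.1 kb, in LRRFIP1) and the longest convergent one (2 and 4, 527 kb).
chromosome 12 left anchor, plus strand, chr12:52540385-52540417: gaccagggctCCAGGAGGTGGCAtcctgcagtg
chromosome 12 right anchor, plus strand, chr12:53267519-53267551: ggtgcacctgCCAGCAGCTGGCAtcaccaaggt
LRRFIP1 left anchor, plus strand, chr2:238611648-238611680: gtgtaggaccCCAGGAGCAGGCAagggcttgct
LRRFIP1 right anchor, minus strand, chr2:238653823-238653855: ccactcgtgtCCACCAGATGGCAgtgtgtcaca
chromosome 13 left anchor, plus strand, chr13:44482705-44482737: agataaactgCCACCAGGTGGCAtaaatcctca
chromosome 13 right anchor, minus strand, chr13:45012299-45012331: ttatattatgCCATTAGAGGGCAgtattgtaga

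A match at both ends was found in 29 loops (0.780%), against 0.251% of the distal pairs with summed counts of 1 to 4. Of the promoter to distal loops, 1.63% had one. The loop anchors were wider than other distal anchors. Per kb, the loop anchors had 0.0134 matches and all distal anchors 0.0120. These differences were not tested. In 22 of the 29 loops all matches of each anchor lay on 1 strand. Of these 22, 7 (31.8%, 13.9 to 54.9%) pointed towards each other, 7 stood in tandem on the plus strand, 2 in tandem on the minus strand and 6 pointed apart. Among the distal pairs with summed counts of 1 to 4 the convergent share was 26.9% of 3276, within that interval. With a shorter core, 33 of 116 oriented loops (28.4%, 20.5 to 37.6%) were convergent. An excess of convergent sites was not detectable with this number. Of the 10 strongest loops, none had a match at both ends, and only the shared anchor of chromosome 9 had a match at all, on the minus strand.

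Matches to the AP-1 motif TGANTCA, which reads the same way on both strands apart from its middle base, were found at 0.397 per kb of the loop anchors, 0.358 per kb of all distal anchors and 0.275 per kb of promoter anchors. At least 1 match was held by 85.9% of the loop anchors and 60.8% of all distal anchors, but the loop anchors were wider. In anchors of the same width class the densities were 0.448 against 0.357 under 4 kb, 0.438 against 0.363 at 4 to 7 kb, 0.385 against 0.357 at 7 to 10 kb and 0.356 against 0.352 from 10 kb on. The difference was thus largest in narrow anchors.

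Anchors of 5 or more loops had 0.493 matches per kb. By width class these were 0.680 (23 anchors), 0.628 (82), 0.456 (49) and 0.429 (64). Their GC content was 40.3%, against 43.6% for all loop anchors and 41.2% for all distal anchors. The busiest PCDH7 anchor, of which 100 bases are printed above, held 13 matches in 32.4 kb, or 0.401 per kb, and the NSMCE2 anchor with 27 loops held 11 in 11.5 kb, or 0.961 per kb. The TCF/LEF motif CTTTGAT had 0.167 matches per kb of the loop anchors and 0.178 of all distal anchors, and the HNF4 motif CAAAGTCCA 0.0140 and 0.0137. The site of MboI, GATC, had 2.38 and 2.59. A match is not a bound site, and the differences were not tested.

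Pairs with similar sequence at both ends can receive tags by misplacement. Only 35 loops (0.941%) had anchors that shared 1% or more of their sequences of 31 bases, and 4 shared 10% or more. The loop with the highest share lay on chromosome 8 and had 4 and 1 counts.

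The count in the other replicate takes no part in the choice when loops are chosen in 1 replicate only. As the labels do not say whether the replicates were separate cultures, the counts of the 2 may not be fully independent. Distal pairs with 3 or more counts in replicate 1 numbered 5093, and 9535 counts were found for them in replicate 2. The distance of the pairs and the depth of their anchors in replicate 2, with the count of the pair itself left out, gave an expected count of 7121. The ratio was 1.34 (exact Poisson interval 1.31 to 1.37). In the other direction, 7388 pairs chosen in replicate 2 had 9801 counts in replicate 1 and a ratio of 1.33 (1.30 to 1.35), and the mean was 1.33 ± 0.00801 (SD, n = 2). Both directions use the same 2 replicates. Each SD of a ratio, here and below, is thus the spread between directions and not between independent values. Simulated counts without raised pairs also came out slightly above 1, so a ratio is read here by its size and not against 1. Against an expectation from distance alone, the ratio was 9.81 and 8.26. Most of the height of these counts over other pairs of the same length thus went with the weights of the anchors. These weights do not separate the depth of an anchor from its width or other properties.

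The ratio rose with the count and the length of the chosen pairs. It was 1.12 ± 0.00336 for pairs with a single count and 1.44 ± 0.0167 for those with 5 or more (SD, n = 2). For 3 or more, it was 1.20 ± 0.0169 at 20 to 50 kb, 1.47 ± 0.0438 at 50 to 100 kb and 1.83 ± 0.0901 from 100 kb on (SD, n = 2). The intervals of the 3 length classes do not overlap in either direction. Inside 1 gene the ratio was 1.28 ± 0.00182 and with neither anchor in a gene 1.34 ± 0.0172 (SD, n = 2). Promoter to distal pairs chosen in the same way had 1.44 ± 0.0170 (SD, n = 2) and promoter to promoter pairs 1.54 and 1.47 in the 2 directions, both above the distal pairs in either direction. As the classes differ in depth and length, these differences were not tested further.

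**Figure D5:**
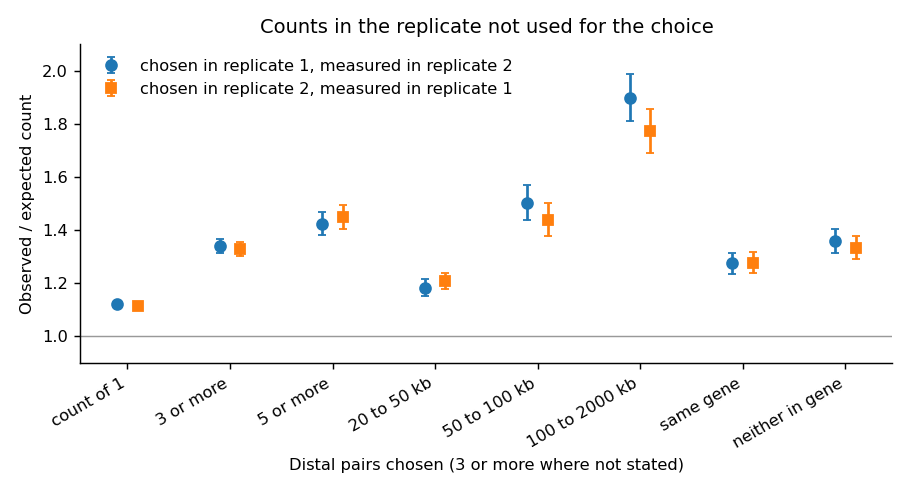
Ratio of observed to expected count (y axis, linear, 1 marked by the grey line) of distal pairs in the replicate that was not used to choose them, for pairs chosen in replicate 1 (blue circles) or replicate 2 (orange squares), with exact 95% Poisson intervals that cover counting error only. The ratio is lowest for single counts, with a mean of 1.12, and highest at 100 to 2000 kb, with a mean of 1.83.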

How the data were processed

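H3K27ac HiChIP of HCT116 cells (MboI) was measured in 2 replicates of 1 group. Valid pairs came from HiC-Pro (per the submitters' processing notes, which also name hg19) and loops from hichipper, and the authors deposited raw counts of paired-end tags per pair of anchors of 1 chromosome for each replicate, without normalization. Versions and the source of the anchors are not given in the sources used here. Of the 250217 anchors of the autosomes and X, nearly all began and all ended at a GATC of hg19, so positions, counted from 1 as in the files, were used on that build. As both tables hold only pairs with a count, a missing pair was taken as 0.

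Genes came from GENCODE release 44 mapped to hg19. For the expected count, distances were cut into 60 classes of equal log width and the anchors were given weights, balanced 20 times, with an offset of 0.5 and the count of the pair itself left out. It was tested on simulated counts, where pairs that had not been raised came out slightly above a ratio of 1. The software was pysam 0.24.0, scipy 1.17.1, numpy 2.4.6, numba 0.67.0, matplotlib 3.10.9 and pandas 2.3.3 under Python 3.11.15. Shares have exact binomial and ratios exact Poisson 95% intervals. Loops are not replicates, so no test across loops was made.

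Named were the 10 loops with the highest summed count, the 5 longest, the 10 largest clusters, the 10 genes holding the most loops, the genes at these and those of the 5 lists. SMAD3, CAV2, the lncRNAs outside the list, the most frequent nearest genes and the clusters of chromosomes 9 and 4 with 42 loops were named after their values were seen. The loops and the lists were chosen with earlier results of these data known. Alternatives were a minimum of 8, other promoter definitions, inner edges, no wide anchors, single replicates, other cluster and motif definitions and, chosen after seeing the data, loops without large clusters, PCDH7 or shared sequence and narrower length classes.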

Additional observations from a re-analysis of the deposited data

How the results depend on the processing

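The number of loops was 3718. It fell to 858 with a minimum summed count of 8, to 2194 without anchors of 10 kb or more, to 2194 without clusters of 10 or more loops (an equal number by coincidence), and lay between 619 and 955 in a single replicate. The 1484 clusters became 245 with the minimum of 8, 927 with distances between inner edges, 955 without wide anchors and 248 to 352 in a single replicate. The share inside 1 gene, 40.7%, was 43.6% with the minimum of 8, 33.0% with promoters of all coding transcripts, 45.9% with promoters of every biotype, 36.1% with inner edges, 36.7% without wide anchors, 42.7% without large clusters, 37.8% without PCDH7 and 43.5% to 44.1% in a single replicate. The share outside genes, 37.9%, was 49.9%, 34.6%, 39.7%, 35.8% and 39.8% with promoters of all coding transcripts, with those of every biotype, without wide anchors, without large clusters and without PCDH7, and 35.8% to 39.1% in a single replicate. The median length, 36.6 kb, was 42.0 kb with the minimum of 8, 53.0 kb with inner edges, 29.9 kb without large clusters and 37.0 to 40.8 kb in a single replicate. Convergent CTCF pairs were 0 of 3 in replicate 1 alone and 1 of 6 in replicate 2 alone, 0% to 16.7% against 31.8%, too few to read. The ratio of 1.34 was 9.81 with distance alone and 1.42 with a minimum of 5. Fewer counts or anchors leave fewer loops by construction, and other causes were not tested. Promoters of 1 or 5 kb moved no result beyond its interval or 1.5 times. No paired analysis was possible because there is 1 group. Most loops stand close to the minimum, so depth limits what can be said of any single one.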
